A study of Solanum lycopersicum with 12 samples.

Results

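Of 34688 tomato (Solanum lycopersicum) gene loci with counts of small-RNA reads, 59 carried small RNAs in every callus library and almost none in cotyledon. They were chosen by measured reads, summed over lengths of 18 to 26 nt, as loci on chromosomes 1 to 12 with at most 1 read over the 3 cotyledon libraries together and at least 3 reads in each of the 9 callus libraries. The reads came from callus on day 12, day 14 and day 16 on SIM medium and from cotyledons, the seed leaves, on day 0, with 3 libraries in each group. All callus started as cotyledons cut from seedlings 6 days after sowing, so the day 0 group is the starting tissue. The labels give no cultivar or transgene, do not say whether replicates were separate cultures, and list no cotyledons of the same age kept off the medium, so that tissue, time and medium cannot be told apart. Among the 59 loci, 29 had no cotyledon read and 30 had 1, so the loci are called callus-selected here rather than callus-only.

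Plant small RNAs are cut from longer RNAs by Dicer-like enzymes and guide Argonaute proteins to matching RNA or DNA. MicroRNAs and secondary small interfering RNAs are mostly 21 or 22 nt long and act on RNA, whereas 24-nt small interfering RNAs direct DNA methylation, chiefly over transposons and repeats. Reads spread over many lengths on a gene can also be pieces of its transcript that no Dicer-like enzyme cut. Callus is a mass of dividing cells that forms on cultured explants and from which shoots can regenerate. The counts are of small RNAs placed on genes and say nothing of mRNA levels; they hold neither the strand of a read nor its position in the gene. The tables pair none of the 59 identifiers with a gene name, none matched the RefSeq gene table of the assembly SLM_r2.1, and no sequence of these loci was at hand, so they are given by identifier without a function.

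Gene loci held 456744 to 698312 reads per library. On the second principal component of all loci tested, 3 callus libraries (day 12 replicate 3, day 14 replicate 1, day 16 replicate 3) had scores of 13.6 to 43.1, against -23.0 to -8.27 in the other 6. Cotyledon replicate 1 deviated in the same direction from the other cotyledon libraries. Without those 3 callus libraries the selection rule kept 97 loci, and without cotyledon replicate 1 as well it kept 225, with fewer libraries in which a locus could fail. Both counts were made after the data were seen. In a bulk library, more cells of a type and more small RNA per cell cannot be told apart.

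The 59 loci were 0.173% of the 34110 identifiers on chromosomes 1 to 12 and 1.03% of the 5716 loci that had at least 3 reads in every callus library. The other 5657 loci of that set, with more than 1 cotyledon read, serve as comparators below. Together the callus-selected loci held 8380 callus reads, between 40 and 1215 per locus with a median of 96, whereas the comparators had a median of 140. Their cotyledon reads numbered 13, 10 and 7 in replicates 1, 2 and 3. These values chose the loci and are given as a description without a test. In CPM, here reads scaled to 1000000 gene reads per library and not divided by the length of the locus, their mean over the 9 callus libraries ran from 8.15 to 242, with a median of 19.1. A count of 0 over the 3 cotyledon libraries allows a level of up to 1.91 CPM, taking 3 reads over the group as the floor. Against that floor the 29 loci without a cotyledon read were at least 4.60-fold to at least 127-fold higher in callus, with a median bound of 10.2-fold. The 30 loci with 1 cotyledon read had callus over cotyledon ratios of 12.5 to 48.3. Bounds and ratios both depend on scaling to gene reads. Gene reads were 14.7% to 18.4% of the recovered library totals in cotyledon and 11.3% to 14.9% in callus. Scaled to those totals, the bounds and ratios would be lower. The exact 95% counting intervals were wide, 2.12 to 507 for the lowest ratio (Solyc04g054490.3) and 8.54 to 1919 for the highest (Solyc01g100200.3), and they test nothing, as the rule fixed the reads. Intervals and floors cover counting error only, since reads were pooled over libraries and differences between libraries were left out. The libraries also carried no molecular identifiers that would tell PCR copies apart.

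**Figure D1:**
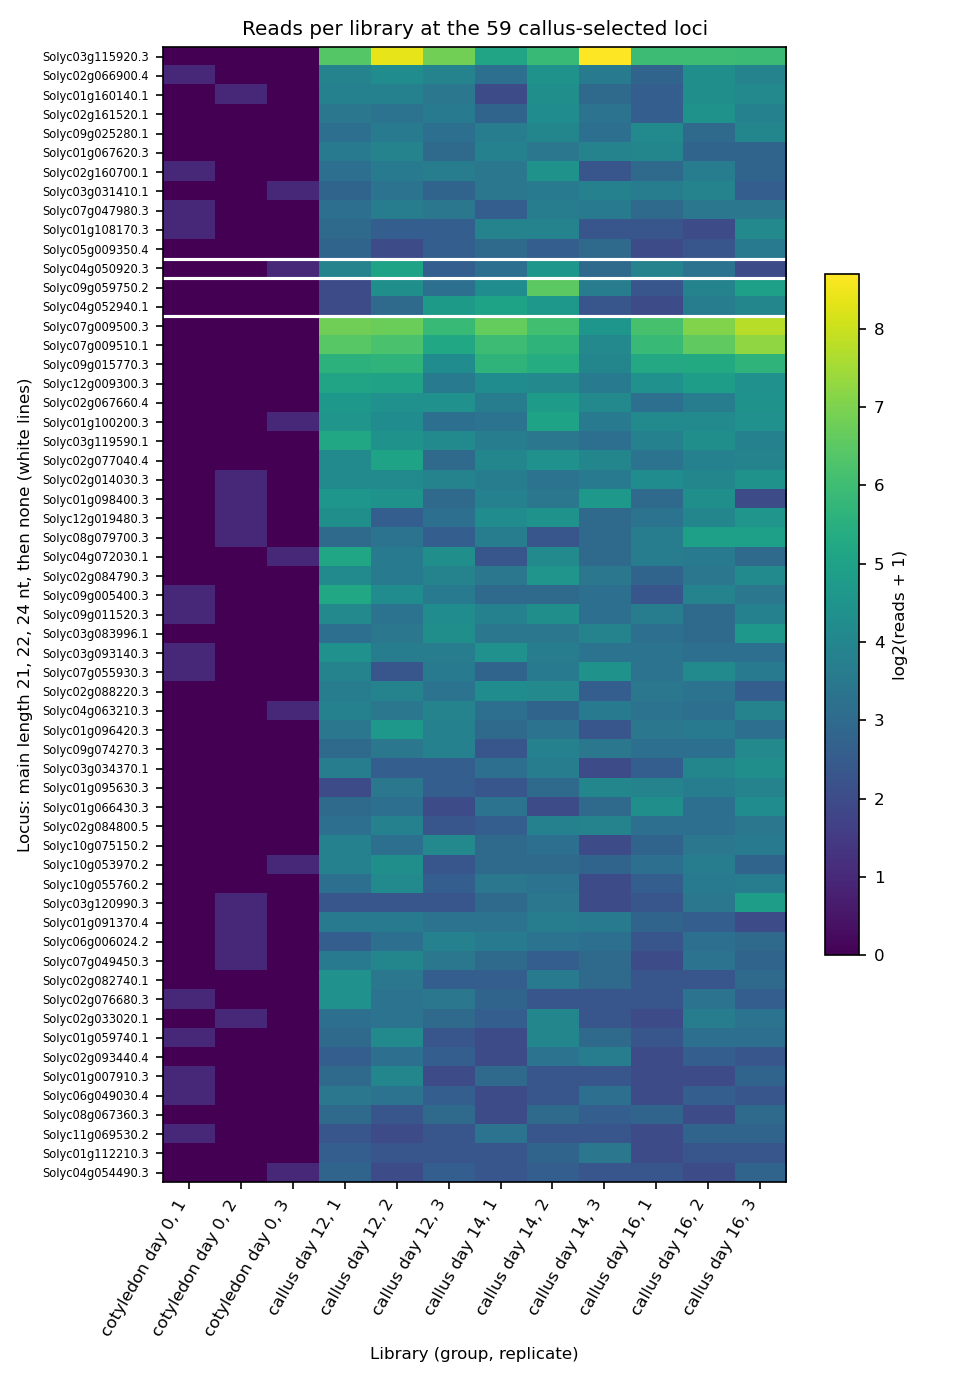
Reads per library at each of the 59 callus-selected loci, as log2(reads + 1), with libraries across and loci down the page, grouped by main read length (21, 22 and 24 nt, then none) and ordered by mean level. The cotyledon columns hold 0 or 1 read by selection, 1 row at the top (Solyc03g115920.3) and 2 rows of the last group (Solyc07g009500.3 and Solyc07g009510.1) hold the most callus reads, and most other rows stay under 50 reads per library.

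The edge of the selection fell among loci with few reads. Just inside it were Solyc04g054490.3, with 3 to 6 reads in each callus library and 1 in cotyledon, and Solyc11g069530.2, with 3 to 9 reads in each callus library and 1 in cotyledon. Just outside it, 40 loci had 2 cotyledon reads, led by Solyc07g052000.1 with 367 callus reads and Solyc10g076510.2 with 186. A further 87 loci missed it because their lowest callus library had 2 reads. Among these were Solyc11g020960.2, with 164 callus reads and none in cotyledon, and Solyc06g074030.1, with 123 callus reads and 1 in cotyledon. A library left out moved the edge, and without 1 of the cotyledon libraries 111 to 131 loci would have been kept; such a set holds all 59 by construction.

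Most of the callus-selected loci had no main read length, and those that had one were mostly 21-nt loci. Taking a length with at least 40% of a locus's callus reads as its main length, 45 of 59 loci (76.3%) had none, 11 (18.6%) had 21 nt, 2 (3.39%) had 24 nt and 1 (1.69%) had 22 nt. Among the 5657 comparators, 2846 (50.3%) had none, 473 (8.36%) had 21 nt, 2132 (37.7%) had 24 nt and 124 (2.19%) had 22 nt. Loci with main lengths of 24 nt were thus 2 of 59 against 2132 of 5657. Among the 5368 comparators within the same range of callus reads as the callus-selected loci, 37.2% had 24 nt, 7.38% had 21 nt and 52.3% had none. The share of 24-nt loci among the callus-selected loci was lower than that too. The range held most of the 5657 comparators, so it did not match the sets in reads. The rule summed over lengths, and the difference in length between the sets was not tested.

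Without a minimum share, 21 nt was the most frequent length at 34 of the 59 loci (57.6%), against 32.6% of the comparators. The length of 24 nt was the most frequent at 5 loci (8.47%), against 47.4% of the comparators. Over loci, the median share of 21-nt reads was 22.97% at callus-selected loci and 13.7% at comparators. For 24-nt reads the medians were 10% at callus-selected loci and 20.97% at comparators. Reads of 18, 19, 20, 25 and 26 nt also had higher median shares at the callus-selected loci, for example 8.20% against 3.75% at 19 nt and 5.13% against 1.65% at 26 nt.

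**Figure D2:**
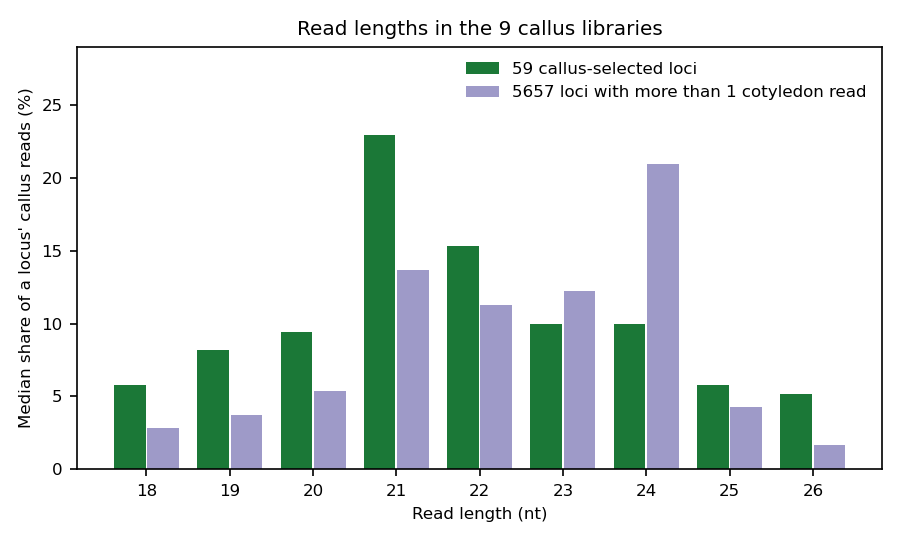
Median share of a locus's reads, in percent, at each read length from 18 to 26 nt in the 9 callus libraries, for the 59 callus-selected loci (green) and the 5657 comparator loci (violet). The callus-selected loci peak at 21 nt (22.97%) and the comparators at 24 nt (20.97%).

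At 39 of the 45 loci with no main length there were reads of every length from 18 to 26 nt. The pooled shares of the 45 loci ran from 7.79% at 26 nt to 17.1% at 21 nt, where an even spread over 9 lengths would give 11.1% each. The most frequent length of such a locus held 13.3% to 39.2% of its reads, and less than 20% at 14 of them. Of the 59 loci, 43 had a read of every length. The 3 loci of this class with the highest mean CPM were Solyc07g009500.3, with 13.7% of its reads at its most frequent length of 23 nt, Solyc07g009510.1, with 13.3% at 20 nt, and Solyc09g015770.3, with 19.2% at 22 nt. No length held as much as 20% of the reads of these 3 loci, nor of Solyc12g009300.3, which had 14.9% at 24 nt. Other loci of the class were less even. Solyc02g067660.4 had 23.1% of its reads at 21 nt and 5% at 26 nt, and Solyc01g100200.3 had 27.3% at 21 nt and 2.60% at 26 nt.

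Reads outside 21 to 24 nt made up 30.3% to 40.3% of the reads at callus-selected loci in the day 12 libraries, 22.9% to 41.0% on day 14 and 37.0% to 42.5% on day 16. Over all loci they were 14.5%, 18.2% and 16.8% in cotyledon replicates 1, 2 and 3 and 10.4% to 17.0% in callus. The summed level of the 45 loci with no main length tended to be higher in callus libraries with a higher all-locus share, but not strictly. In the 3 callus libraries with the highest all-locus shares, day 12 replicate 1 (17.0%), day 12 replicate 2 (14.1%) and day 16 replicate 3 (14.0%), the 45 loci summed to 1554, 1131 and 1910 CPM. In the 3 with the lowest, day 14 replicate 2 (10.4%), day 12 replicate 3 (10.9%) and day 14 replicate 3 (11.03%), they summed to 896, 851 and 825 CPM. Between these lay day 14 replicate 1 (11.3%), day 16 replicate 1 (11.8%) and day 16 replicate 2 (12.8%), with 1188, 919 and 1368 CPM. The part of RNA size or quality in these levels was not tested.

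Among the 11 loci of 21 nt, Solyc03g115920.3 had by far the most reads. It had none in cotyledon and 83, 330 and 113 reads on day 12, 33, 57 and 415 on day 14, and 62, 62 and 60 on day 16. A pair of libraries, replicate 2 of day 12 and replicate 3 of day 14, held most of its reads, and its day 16 libraries were nearly equal. Its 21-nt reads were 60.2% of its callus reads and ranged from 36.7% to 72.3% over callus libraries, with the highest share in the library with most reads, where 300 of 415 reads were 21 nt and 58 were 22 nt. In CPM it averaged 284 ± 190 on day 12, 322 ± 428 on day 14 and 120 ± 5.26 on day 16 (SD, n = 3 each). Its libraries of 1 day differed more, relative to counting noise, than those of any other of the 59 loci.

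The next 21-nt loci by mean CPM had far fewer reads. Solyc02g066900.4 (48.0% at 21 nt) had 1 cotyledon read, and 14, 18 and 14 reads on day 12, 8, 21 and 11 on day 14, and 6, 19 and 14 on day 16. Solyc01g160140.1 (61.9% at 21 nt) had 1 cotyledon read, and 13, 13 and 10 reads on day 12, 3, 19 and 7 on day 14, and 5, 19 and 16 on day 16. Both had overlapping ranges of reads on the 3 days. The 10 loci of 21 nt other than Solyc03g115920.3 together had 160 ± 11.02 CPM on day 12, 188 ± 18.7 on day 14 and 201 ± 45.2 on day 16 (SD, n = 3 each), with library values between 150 and 233 CPM. The 21-nt share was highest at Solyc09g025280.1, with 78.2% of 101 callus reads, and lowest at Solyc03g031410.1, with 40.7% of 86. Both were singled out after their values were seen.

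The 24-nt loci were Solyc09g059750.2 (68.7% at 24 nt) and Solyc04g052940.1 (57.9%), neither with a cotyledon read. Solyc09g059750.2 had 3, 19 and 8 reads on day 12, 18, 91 and 12 on day 14, and 4, 14 and 29 on day 16. Solyc04g052940.1 had 3, 7 and 26 reads on day 12, 32, 24 and 4 on day 14, and 3, 12 and 15 on day 16. Both varied several-fold between libraries of the same day, and reads of 21 to 24 nt made up 92.4% of the first and 96.8% of the second. By callus library, the 24-nt share of the first ran from 0% of 4 reads (day 16 replicate 1) to 100% of 3 (day 12 replicate 1). That of the second ran from 31.3% of 32 reads (day 14 replicate 1) to 100% of 4 (day 14 replicate 3). In the library with 32 reads, 13 were 22 nt and 10 were 24 nt. The single 22-nt locus, Solyc04g050920.3 (42.6% at 22 nt), had 1 cotyledon read, and 14, 32 and 5 reads on day 12, 8, 23 and 7 on day 14, and 14, 9 and 3 on day 16. Its class rested on a share just above the threshold.

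How the callus-selected loci changed from day 12 to day 16 was the question of the tests, since the rule compared no callus days. It did ask for at least 3 reads in each callus library, so loci absent on any callus day were left out beforehand. The tests therefore cover only changes in level among loci present on all 3 days. In CPM, the summed level of the callus-selected loci differed between days by less than the SD of each day's libraries. No test was made of this sum. It was 1687 ± 370 CPM on day 12, 1601 ± 240 on day 14 and 1788 ± 572 on day 16 (SD, n = 3 each), against 23.7, 17.7 and 15.3 CPM in the cotyledon libraries. The libraries held 1920, 1881 and 1260 CPM on day 12, 1559, 1385 and 1859 on day 14, and 1222, 1776 and 2366 on day 16, so the days overlapped. A few loci set much of this sum. Solyc03g115920.3 gave 14.5% of the callus reads of the 59 loci, and the 3 loci with most reads gave 32.5%. Without Solyc03g115920.3 the sums were 1404 ± 349 CPM on day 12, 1279 ± 225 on day 14 and 1668 ± 567 on day 16. That locus also set the 21-nt share, which was 46.5% in replicate 3 of day 14 and 19.4% to 31.6% in the other callus libraries, and 18.2% to 26.4% over all 9 without it.

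**Figure D3:**
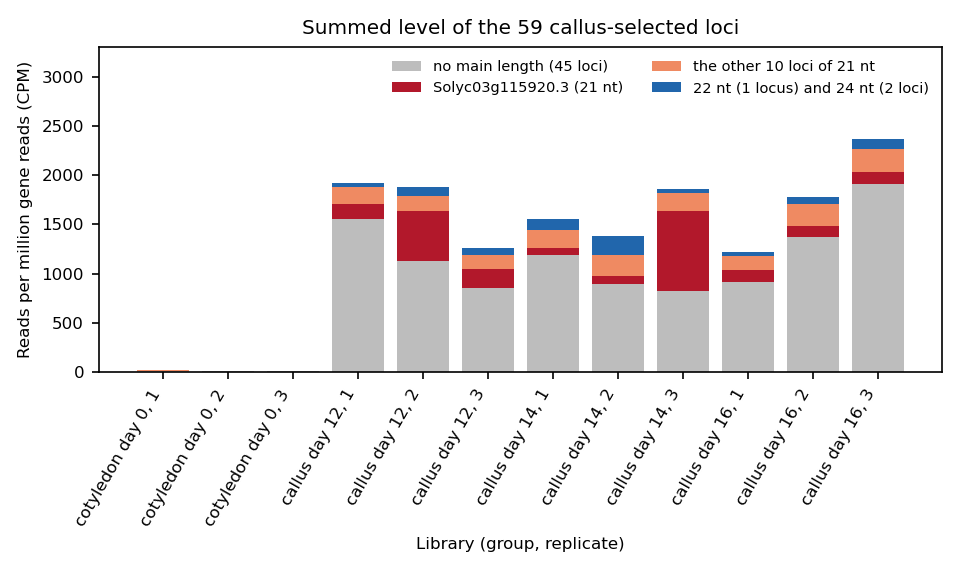
Summed level of the 59 callus-selected loci in CPM for each of the 12 libraries, stacked by class of main length, with Solyc03g115920.3 shown on its own. Callus libraries run from 1222 to 2366 CPM with overlapping days, cotyledon libraries stay under 24 CPM, and Solyc03g115920.3 is large in replicate 2 of day 12 and replicate 3 of day 14.

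Locus by locus, none of the 45 callus-selected loci that passed the filter on low counts changed between callus days at an adjusted p under 0.05 (edgeR's quasi-likelihood test, Benjamini-Hochberg over 6729 loci). The other 14 had too few reads to be tested. For day 14 against day 12, 0 of 45 were higher and 0 lower, where 0% of the 6729 loci were called in either direction. Between day 16 and day 12, 0 of 45 were called, where 0.0594% of all loci (4 loci) were called higher and 0% lower. Between day 16 and day 14, 0 of 45 were called, where 0% were called in either direction. At an unadjusted p under 0.05 in the same edgeR test, 3, 4 and 3 of the 45 loci passed in these comparisons in the same order. Of all 6729 loci, 602, 571 and 356 passed. DESeq2 called 0 of the callus-selected loci in each, although only 3, 35 and 59 of them had an adjusted p there. Of all loci with an adjusted p there, it called 22 of 1611, 11 of 6598 and 0 of 32239. In the authors' deposited table of DESeq2 comparisons by read length, 57 of the 59 loci had a row. Of the 758 adjusted p-values for these loci between callus days, 0 were under 0.05. The share over all loci of that table was not counted. Each of its tests used the reads of 1 length only, so nothing is read from that count. The standard errors of the log2 changes, with a median of 0.56 and a range of 0.40 to 0.81, limited what could be detected.

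The median log2 change of the 45 loci was 0.09 for day 14 against day 12, 0.13 for day 16 against day 12 and 0.17 for day 16 against day 14, beside 0.0012, 0.02 and 0.0047 over all loci tested. Scaled to the recovered library totals instead of gene reads, the first 2 medians turned to -0.19 and -0.17, beside -0.26 and -0.26 over all loci. Among all 59 loci, 20 had their highest mean CPM on day 12, 15 on day 14 and 24 on day 16. No direction over the days was common to them.

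**Figure D4:**
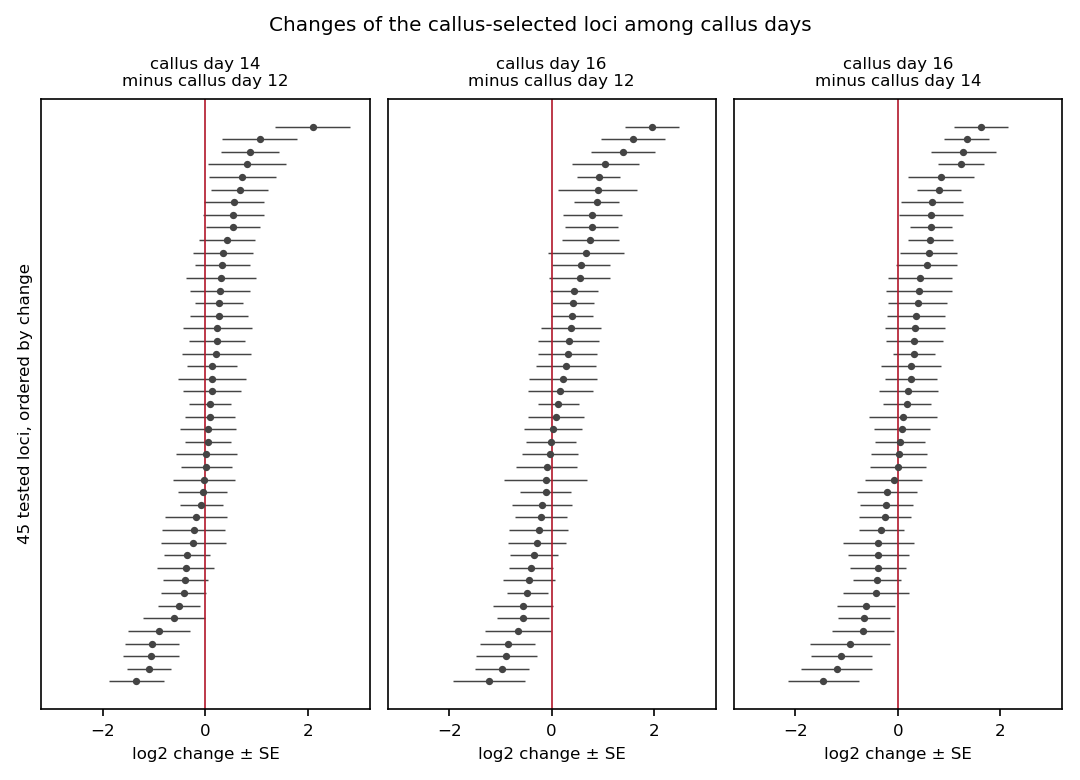
Log2 change of each of the 45 tested callus-selected loci for the 3 comparisons among callus days (points, edgeR; lines, 1 SE), each panel ordered by its own changes. The points lie on both sides of 0, between -1.45 and 2.10, and most lines cross or nearly reach 0.

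The changes with the largest log2 values were uncertain. Solyc08g079700.3, singled out after its values were seen, had 7, 9 and 5 reads on day 12, 12, 4 and 7 on day 14, and 12, 29 and 29 on day 16, with 1 read in cotyledon. Its day 16 libraries all lay above its day 12 libraries. The log2 change for day 16 against day 12 was 1.96 (SE 0.53, edgeR adjusted p = 0.255). Solyc09g059750.2 was higher on day 14 than on day 12 by a log2 value of 2.10 (SE 0.73, edgeR adjusted p = 0.448), with its 91 reads in replicate 2 of day 14 far above every other library. Without the filter on low counts its edgeR adjusted p was 0.0141, and over the other 10 alternatives it ran from 0.359 to 0.808. For Solyc03g115920.3 the log2 change was -1.22 for day 16 against day 12 (SE 0.70, edgeR adjusted p = 0.658) and -1.45 for day 16 against day 14 (SE 0.70, edgeR adjusted p = 0.927). For day 16 against day 14 its edgeR adjusted p was 0.0167 without the filter and from 0.576 to 1 over the other 11 alternatives. Both calls thus rested on that setting, which tests 32258 loci.

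The share of callus-selected loci whose CPM did not overlap between 2 days lay between 1.69% and 8.47%, near or below the share over the 5716 loci with at least 3 reads in every callus library. For day 14 against day 12, 1 of 59 loci (1.69%) was higher without overlap, beside 6.28% of the 5716, and 5 (8.47%) were lower, beside 7.52%. Between day 16 and day 12, 3 (5.08%) were higher on day 16, beside 8.8%, and 3 (5.08%) were lower, beside 6.02%. Between day 16 and day 14, 2 (3.39%) were higher on day 16, beside 6.26%, and 2 (3.39%) were lower, beside 4.11%. The loci named next were singled out from these counts after their values were seen. Higher on day 16 than on day 12 without overlap were Solyc08g079700.3, Solyc01g066430.3 and Solyc01g095630.3. Solyc01g066430.3 had 19, 8 and 18 reads on day 16 and 7, 8 and 3 on day 12. Since a library of each day held 8 reads, its lack of overlap rests on scaling to gene reads. Solyc01g095630.3 had 14, 12 and 14 reads on day 16 and 3, 10 and 5 on day 12. Lower on day 16 than on day 12 without overlap were Solyc03g115920.3, Solyc01g091370.4 and Solyc03g093140.3. Solyc01g091370.4 had 11, 11 and 9 reads on day 12, 9, 12 and 11 on day 14, and 6, 5 and 3 on day 16. Solyc03g093140.3 had 20, 12 and 12 reads on day 12, 20, 12 and 9 on day 14, and 9, 8 and 8 on day 16. The last 2 loci were also the 2 that lay lower on day 16 than on day 14.

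The spread between replicates of 1 day lay near that of the comparators. As chi-square within days over 6 degrees of freedom, where counting noise alone gives about 1, it ranged from 0.249 to 133 with a median of 2.10, and exceeded 3 at 17 of the 59 loci (28.8%). Among the 5368 comparators in the same range of callus reads the median was 2.06, and 30.0% exceeded 3; no test was made. The steadiest was Solyc01g091370.4 and the most variable Solyc03g115920.3. Solyc09g015770.3 had no cotyledon read and 47, 49 and 18 reads on day 12, 49, 41 and 15 on day 14, and 37, 38 and 49 on day 16, so its low libraries were replicates of days 12 and 14. Solyc12g009300.3, also without a cotyledon read, had 33, 31 and 11 reads on day 12, 18, 16 and 11 on day 14, and 20, 28 and 20 on day 16. Solyc02g067660.4, again without a cotyledon read, had 24, 20 and 20 reads on day 12, 12, 27 and 16 on day 14, and 8, 12 and 21 on day 16. Each of these overlapped between days. Solyc01g100200.3, with 1 cotyledon read, had 22, 18 and 8 reads on day 12, 9, 32 and 11 on day 14, and 17, 17 and 20 on day 16.

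**Figure D5:**
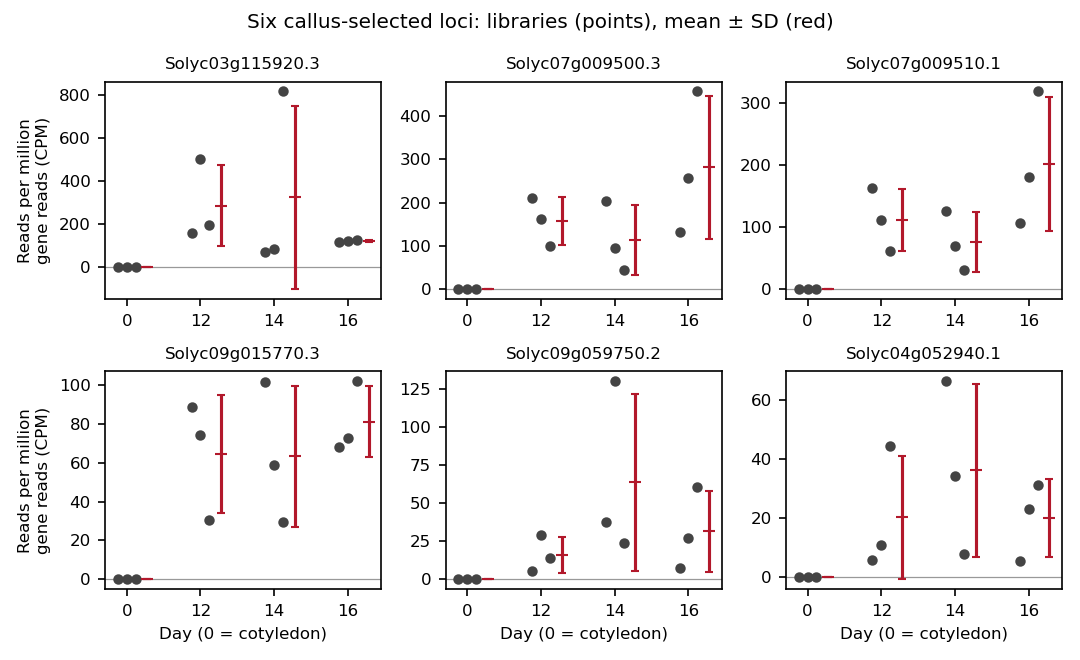
Level in CPM of 6 callus-selected loci in each library (points) by day, with the mean and SD of the 3 libraries in red, where day 0 is cotyledon. Solyc07g009500.3 and its neighbour Solyc07g009510.1 are both highest in replicate 3 of day 16 and lowest in replicate 3 of day 14, and single libraries carry much of the day 14 means of Solyc03g115920.3 and Solyc09g059750.2.

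By identifier, the 59 loci lay mostly apart from each other. Tomato identifiers number genes along a chromosome, and between a callus-selected locus and the next identifier on either side the number usually differed by 10 (94 of 118 cases). The loci fell on all 12 chromosomes, with 13 on chromosome 2, 12 on chromosome 1 and 7 on chromosome 3, and 1 each on chromosomes 5 and 11. As a share of loci with at least 3 reads in every callus library they were 2.67% on chromosome 2 and 0.234% on chromosome 11. Of the 118 positions next to a callus-selected locus, before or after it, 4 (3.39%) held another callus-selected locus, in 2 adjacent pairs, where 0.173% of all identifiers of chromosomes 1 to 12 were callus-selected. This was not tested. No run was longer than 2.

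The pair on chromosome 7, Solyc07g009500.3 and Solyc07g009510.1, took the second and the third place in callus reads. Solyc07g009500.3 had 111, 106 and 59 reads on day 12, 98, 66 and 23 on day 14, and 71, 133 and 219 on day 16. Solyc07g009510.1 had 86, 73 and 36 reads on day 12, 61, 49 and 16 on day 14, and 58, 94 and 153 on day 16. Neither had a cotyledon read, and both were lowest in replicate 3 of day 14 and highest in replicate 3 of day 16. The ratio of the first locus to the second stayed between 1.22 and 1.64 in the 9 callus libraries and between 1.25 and 1.71 over the 9 read lengths. The sources used here do not say how reads that match both loci were counted, so whether these are separate signals is uncertain. For day 16 against day 12 their log2 changes were 0.88 (SE 0.44, edgeR adjusted p = 0.618) and 0.91 (SE 0.43, edgeR adjusted p = 0.582).

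The pair on chromosome 2, Solyc02g084790.3 and Solyc02g084800.5, had fewer reads and no cotyledon read. Solyc02g084790.3 had 17, 11 and 14 reads on day 12, 10, 22 and 10 on day 14, and 6, 10 and 17 on day 16. Solyc02g084800.5 had 8, 13 and 4 reads on day 12, 5, 13 and 14 on day 14, and 8, 8 and 10 on day 16. Here the ratio of the first to the second ran from 0.714 to 3.5 over the libraries. On its other side Solyc02g084790.3 adjoined Solyc02g084780.5, which had 114 callus reads and 3 cotyledon reads and so missed the rule.

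The other neighbours had failed the rule on the same reads, so their levels in callus and cotyledon are a description. Of 114 distinct neighbours that were not callus-selected, 79 had more than 1 cotyledon read and 5 had no read in any library. Their medians were 20 callus reads and 4 cotyledon reads. The filter on low counts left 22 of them, of which 6 (27.3%) were higher and 8 (36.4%) lower in callus of all days than in cotyledon, beside 17.6% and 23% of all 6729 loci (edgeR's quasi-likelihood test, adjusted p under 0.05). Nothing is read from these shares, since the neighbours with the clearest difference were counted as callus-selected. Neighbours with few cotyledon reads also passed the filter only through their callus reads, so they could hardly be called lower. The 6 higher ones, named from this count after their values were seen, included 4 with few cotyledon reads. Solyc03g115930.3, next to Solyc03g115920.3, had 93 callus reads and 1 cotyledon read. It missed the rule because its lowest callus library had 2 reads. Solyc01g091380.5, next to Solyc01g091370.4, had 140 callus reads and 3 cotyledon reads. Solyc03g119600.1, next to Solyc03g119590.1, had 84 callus reads and 4 cotyledon reads. The fourth was Solyc02g084780.5, described above. The other 2 were Solyc03g026418.1, with 122 callus reads and 14 cotyledon reads, whose number differs by 4992 from that of Solyc03g031410.1 although it is the next identifier in the table, and Solyc06g049037.2, with 618 callus reads and 96 cotyledon reads.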

How the data were processed

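The authors deposited counts of reads per gene locus, length (18 to 26 nt) and library, and TPM values by strand, length and library. They also deposited a table of their own DESeq2 comparisons with log2 fold changes and p-values. The submitters' processing notes name fastp, Bowtie and DESeq2. Genome build, settings and the treatment of reads matching several loci are not given in the sources used here. Libraries were made by adapter ligation, PCR and gel selection, per the labels' protocols. Dividing gene counts by deposited TPM gave 1 library total per library, and with it 216 of 216 values were whole reads within 0.05. No columns of other samples were present (0).

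Deposited counts were summed over the 9 lengths, and CPM are reads scaled to 1000000 gene reads. The 59 loci, the lists and the tests were chosen with earlier results of these data known. Days were compared over all 12 libraries with edgeR 4.0.16 (R 4.3.3; quasi-likelihood F test, TMM scaling, filterByExpr, Benjamini-Hochberg at 0.05; 6729 loci), and DESeq2 1.42.0 was an alternative. SE is the log2 change over the square root of F. The script was tested on counts simulated for day 16 against day 12, with the same spread at every locus. It called 48 of 67 tested loci with 4-fold changes but only 1 of 66 with 2-fold changes, and made 4 false calls. The rest of the 100 loci changed at each size failed the filter on low counts. Changes of 2-fold could thus mostly be missed. The changed loci were drawn from the whole table above a minimum of reads, so recovery at the callus-selected loci may differ. The spread behind the p-values is that between libraries and may be technical. Replicate numbers were not used to pair libraries. Loci were named by rule: the 8 with the highest mean callus CPM, the 3 highest per class of main length, adjacent members, members called between days (none), and 2 loci on each side of the rule; others are said to be singled out after their values were seen. No gene sequence or annotation was used.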

Additional observations from a re-analysis of the deposited data

How the results depend on the processing

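The number of loci kept depended on the rule's limits. It was 59 as reported, 29 with no cotyledon read allowed and 140 with up to 3, and 418, 23 and 5 with at least 1, 5 and 10 reads in each callus library. Leaving out 1 library gave 61 to 131, where leaving one out can only add loci. Leaving out the 3 callus libraries that stood apart gave 97, and leaving out 4 with the cotyledon one gave 225, both chosen after seeing the data. At a main length of 50% or more, 7 loci had 21 nt and 0 had 22 nt. Without a minimum share, 34 had 21 nt, 10 had 22 nt, 5 had 24 nt, 10 another length and 0 none. The count of 22-nt loci was 2 with the mean of the libraries' shares and 1 to 2 when 1 callus library was left out; without the 3 libraries that stood apart it was 2, and 1 locus had another length. Scaled to 1000000 reads of the library totals, the summed level was 238, 199.9 and 215 at days 12, 14 and 16. Besides the change of scale, day 12 was then the highest, whereas by gene reads day 16 was (1788 CPM). The days overlapped by library totals too, with 187 to 266, 175 to 223 and 148 to 287. Without the locus with most reads the summed level was 1279 CPM at day 14. The 4 loci with a callus-selected neighbour stayed at 4 under each other definition of neighbour.

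Loci of the whole table called for day 14 against day 12 (0 as reported) were 36 without the filter on low counts, 22 in DESeq2 and 0 to 1 when 1 library was left out. For day 16 against day 12 (4 as reported) they were 51 without the filter, 11 in DESeq2, 0 with library totals as the scale, 0 with only the 9 callus libraries and 0 to 2 when 1 library was left out (0 without replicate 1 or 3 of day 12 or of day 16). For day 16 against day 14 (0 as reported) they were 32 without the filter and 0 to 2 when 1 library was left out. Of the callus-selected loci, 1 was called without the filter for day 14 against day 12 and 1 for day 16 against day 14, and 0 in each other setting. With the replicate block, 0 loci were called in each comparison (0 for day 16 against day 12, against 4 as reported). Same-numbered libraries correlated in their deviations from the group means at -0.263 to 0.195. With 3 libraries in each group, such values cannot tell whether the numbers mark shared cultures or batches. The causes were not tested. Depth limits the loci: the median callus-selected locus had 96 reads over 9 libraries.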
